A study of Mus musculus with 21 samples.

Results

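The genes described here build and drive the sperm tail. They are 31 of 33 genes listed by name for known roles in the flagellum or in motility and were taken as rows of the deposited table by gene symbol. The list was drawn up with earlier results of these data known. The table holds 22135 genes, of which 19285 had expression values. Fsip2 and Dnah3 were not analysed here. The 31 genes comprised 5 of the fibrous sheath (Akap3, Akap4, Ropn1, Ropn1l, Cabyr), 4 of the outer dense fibres (Odf1 to Odf4), 5 tektins (Tekt1 to Tekt5), 5 axonemal dynein chains (Dnah1, Dnah2, Dnah8, Dnah17, Dnali1) and 5 of the radial spokes, central pair and regulatory complex (Rsph1, Rsph9, Spag16, Spag17, Gas8). The remaining genes were the 4 subunits that form the pore of the CatSper calcium channel (Catsper1 to Catsper4) and 3 genes of the mitochondrial sheath and of tail assembly (Smcp, Meig1, Spata6).

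The mouse sperm tail is a modified motile cilium. Its core, the axoneme, is a ring of doublet microtubules around a central pair, and dynein arms on the doublets slide them past each other to bend the tail, under control of the radial spokes and the central pair. Sperm add to this shared ciliary core outer dense fibres, a fibrous sheath and a helix of mitochondria, which airway and other motile cilia lack, and most of these transcripts are made in late spermatocytes and in haploid spermatids.

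RNA was sequenced from 7 groups of mouse cells, with 3 libraries in each. The groups were germ cells, testicular peritubular myoid cells (PTM, the contractile cells around the seminiferous tubule), Sertoli cells, Leydig cells, and smooth muscle cells of trachea (TSMC), blood vessel (VSMC) and intestine (ISMC). All groups were labelled as untreated primary cells of C57BL/6J mice, cultured in DMEM/F12 with 10% fetal bovine serum at 37 °C and 5% CO2. The testicular cells were isolated by published procedures and the smooth muscle cells were bought from a supplier, so that organ and source cannot be told apart between them. The labels do not say whether libraries of a group came from separate animals or cultures, so each p-value is set against a library-to-library spread that could be purely technical. Expression is given in FPKM, a fragment count scaled to transcript length and sequencing depth. No read counts were used, so depth is known only by inference from the steps of low FPKM values.

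The germ cell label was checked against marker genes. All 13 spermatid markers and all 11 tested spermatocyte markers of 12 were higher in germ cells than in each of the 6 somatic groups, but 4 of the 13 and 2 of the 11 reached the level for testing in somatic libraries, and the others could only be called higher. The label check therefore rests on levels. The spermatid markers summed to 12110 to 13340 FPKM in germ cell libraries and to 1.09 to 19.0 FPKM in somatic libraries. Spermatogonial markers were low in germ cells, at 22.7 to 35.2 FPKM summed over 12 genes, of which Dazl, also made in later stages, supplied 20.7 FPKM on average, while Kit averaged 0.26 and Stra8 0.777 FPKM. The testicular somatic preparations were less distinct. Insl3, the Leydig cell hormone, averaged 3647 FPKM in PTM and 3249 FPKM in Leydig libraries, and the smooth muscle actin gene Acta2 averaged 1605 FPKM in PTM and 4332 FPKM in Sertoli libraries. PTM library 2 also differed from the other PTM libraries, with Sertoli markers summing to 4027 FPKM against 1754 and 2204 FPKM. Since these are bulk samples, fewer cells of a type and less RNA per cell cannot be told apart.

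Sequences upstream of 6 of these genes are shown first, because they differ in their content of CG dinucleotides and in the somatic values given later. Odf2, Ropn1l and Gas8 had more than 1 FPKM in every somatic library, while the somatic median was 0.03 FPKM for Akap3, 0.06 for Akap4 and 0.18 for Smcp. The 6 were picked with sequences and values known, and the last 3 are the only windows without a CG among those matched. Each sequence is the 250 bases before the gene start in RefSeq on GRCm38.p6, read 5′ to 3′ on the gene's strand. Capitals mark CG dinucleotides in Odf2, Ropn1l and Gas8, and in Akap3 and Akap4 they mark a run of letters that these promoters share. The Odf2 window is chr2:29889470-29889719 on the plus strand and holds 22 CG dinucleotides, the Ropn1l window is chr15:31453690-31453939 on the minus strand and holds 18, and the Gas8 window is chr8:123518585-123518834 on the plus strand and holds 10. The Akap4 window is chrX:7067265-7067514 on the plus strand, the Akap3 window is chr6:126852848-126853097 on the plus strand and the Smcp window is chr3:92589074-92589323 on the minus strand. Akap3, Akap4 and Smcp stand for no general rule, since other genes with low somatic values have CG-rich windows. The window of Catsper2 holds 35 CG, that of Tekt1 holds 18 and that of Spag16 holds 16.
Odf2: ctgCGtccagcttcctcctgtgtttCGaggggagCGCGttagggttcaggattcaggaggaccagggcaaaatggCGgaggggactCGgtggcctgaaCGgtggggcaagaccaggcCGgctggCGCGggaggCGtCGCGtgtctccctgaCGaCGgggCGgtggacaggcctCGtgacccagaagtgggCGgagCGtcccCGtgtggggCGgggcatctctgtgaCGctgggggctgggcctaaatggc
Ropn1l: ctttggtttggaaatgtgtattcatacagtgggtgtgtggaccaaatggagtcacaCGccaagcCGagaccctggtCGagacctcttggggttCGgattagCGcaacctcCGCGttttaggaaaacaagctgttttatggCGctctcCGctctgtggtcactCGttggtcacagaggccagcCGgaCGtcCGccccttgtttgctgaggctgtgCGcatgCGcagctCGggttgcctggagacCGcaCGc
Gas8: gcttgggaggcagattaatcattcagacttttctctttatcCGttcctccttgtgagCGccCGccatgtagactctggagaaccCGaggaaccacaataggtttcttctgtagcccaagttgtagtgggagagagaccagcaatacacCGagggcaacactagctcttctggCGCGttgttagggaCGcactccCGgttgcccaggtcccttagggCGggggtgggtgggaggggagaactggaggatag
Akap4: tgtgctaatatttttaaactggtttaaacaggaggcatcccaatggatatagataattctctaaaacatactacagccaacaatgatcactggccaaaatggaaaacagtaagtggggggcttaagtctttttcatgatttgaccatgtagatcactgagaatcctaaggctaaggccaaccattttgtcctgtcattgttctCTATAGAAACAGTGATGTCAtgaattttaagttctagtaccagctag
Akap3: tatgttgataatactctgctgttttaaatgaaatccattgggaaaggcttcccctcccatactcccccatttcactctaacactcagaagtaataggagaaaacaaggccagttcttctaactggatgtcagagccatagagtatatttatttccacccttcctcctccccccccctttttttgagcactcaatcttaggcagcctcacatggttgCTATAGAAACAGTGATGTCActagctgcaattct
Smcp: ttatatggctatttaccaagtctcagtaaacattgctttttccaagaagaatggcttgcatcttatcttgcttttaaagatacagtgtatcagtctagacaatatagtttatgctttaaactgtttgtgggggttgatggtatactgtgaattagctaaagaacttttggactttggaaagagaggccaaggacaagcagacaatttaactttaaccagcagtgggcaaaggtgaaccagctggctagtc

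A promoter window was matched for 27 of the 31 genes. The ratio of observed to expected CG dinucleotides had a median of 0.42 over these 27 windows and 0.61 over the windows of 15272 genes of the table. It was 0.58 over the 6 genes that reached 1 FPKM in at least 3 somatic libraries and 0.19 over the other 21. This difference is described and was not tested. A ratio under 0.3 was found for 0 of these 6 genes, for 13 of the other 21 and for 26.3% of all windows, while Catsper2 (1.02), Tekt1 (0.93) and Spag16 (0.82) had ratios above that of Odf2 (0.80) and low somatic RNA. The windows of Akap3 and Akap4, whose protein products anchor protein kinase A in the fibrous sheath and bind each other, shared an unbroken run of 20 bases on the same strand, ctatagaaacagtgatgtca, which begins 34 bases before the start of Akap3 and 47 bases before that of Akap4. Among 351 pairs of the 27 windows this was the longest shared run, ahead of 13 bases for the next pair and a median of 8. On either strand, 2 of the 15272 windows held all 20 letters. The run was noticed after the sequences had been read, and it is described here as a likeness of letters only.

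Short motifs of factors known in ciliary and spermatid transcription were searched on both strands of the same 250 bases. GTTGCC, a core of the sites bound by RFX factors, occurred in 5 of 27 windows (18.5%), those of Gas8, Ropn1l, Odf3, Tekt1 and Spag16, and in 10.4% of all windows. GTAAACA, a forkhead core, occurred in 3 windows (11.1%) and in 2.38% of all, and TGACGT, a core of the cyclic AMP response element, in 2 windows (7.41%) and in 8.41% of all. TATAAA was found in 0 of 27 windows and in 10.1% of all.

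In germ cells the listed genes ranged from rank 13 of all genes for Odf2 to rank 3469 for Dnah2. Their summed level was 11410, 11790 and 11240 FPKM in germ cell libraries 1, 2 and 3, against 49.6 to 71.0 FPKM in the 18 somatic libraries. The members ranged from 23.8 FPKM for Dnah2 to 1644 FPKM for Odf2 as germ cell means, with a median of 193 FPKM. The lowest stood at the 82.0th percentile of the 19285 genes with values. Of these genes, 10160 to 10519 reached 1 FPKM in a germ cell library. For each of the 31 genes, every germ cell library was above every somatic library. The heat map of values by gene and library shows this step between the first 3 columns and the rest. The share of all genes with such a gap is not given here. For the 24 members that reached 1 FPKM in 3 libraries through germ cells alone, the gap follows largely from that level.

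**Figure D1:**
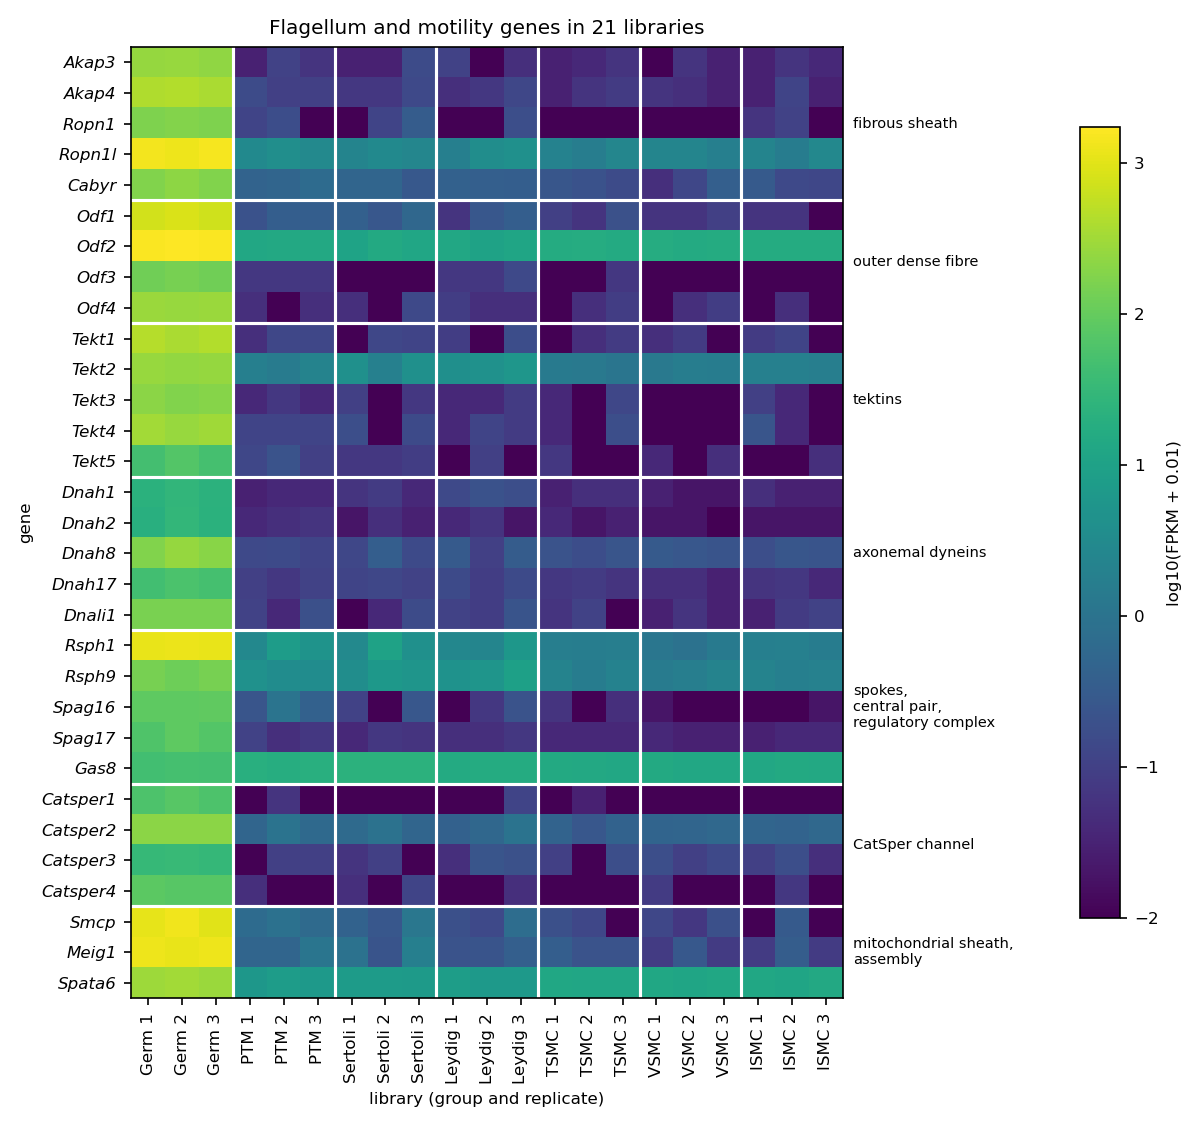
Level of each of the 31 genes (rows, grouped by role) in each of the 21 libraries (columns, germ cells at the left), as log10(FPKM + 0.01). All 31 rows are brightest in the 3 germ cell libraries, and 7 rows, among them Gas8 and Odf2, keep an intermediate level in all 18 somatic libraries.

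Differences were tested with limma on log2(FPKM + 1) in one fit of all 21 libraries, and a gene was called at a Benjamini-Hochberg adjusted p under 0.05 with a log2 fold change of at least 1 in size. Called higher in germ cells in all 6 comparisons with somatic groups were 30 of 31 members, beside 25.0% of the 14444 genes tested. The 6 comparisons share the germ cell libraries. Per comparison, 31 members were called higher against PTM, Leydig, TSMC, VSMC and ISMC and 30 against Sertoli cells, and the share of all genes called higher was 27.6% against PTM, 30.2% against Leydig, 29.9% against TSMC, 30.8% against VSMC, 30.0% against ISMC and 28.6% against Sertoli cells. Against the mean of the 6 somatic groups, the members' median log2 fold change was 7.07 and that of all genes tested was -0.53, with 29.0% of genes called higher. Genes were tested if they reached 1 FPKM in 3 libraries, and 24 members did so in germ cells alone. These 24 had to differ, and their count adds nothing to their levels. Of the 7 that also reached it in somatic libraries, 6 were called in all 6 comparisons. In the authors' deposited table, all 31 had a positive log2 fold change for germ cells over PTM, from 1.27 to 13.24. These values describe the same libraries and are no separate evidence. The share of all genes with a positive deposited value is not given here.

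The fibrous sheath wraps the principal piece of the tail and holds signalling enzymes in place. Akap4, on chromosome X, the main structural protein of the sheath, had 398, 435 and 369.9 FPKM in germ cell libraries and at most 0.15 FPKM in a somatic library. Akap3, the anchoring protein on which the sheath is first laid down, had 254, 271 and 237 FPKM in germ cells and no more than 0.15 FPKM elsewhere. Their log2 fold changes over the somatic mean were 8.56 ± 0.05 for Akap4 and 7.93 ± 0.05 for Akap3 (SE), given as a description since neither gene reached the level for testing outside germ cells. Ropn1 and Ropn1l encode ropporins, small proteins that dock on these anchors. Ropn1l was the second most abundant member, at 1396, 1261 and 1422 FPKM in germ cells, and was 1.55 to 4.21 FPKM in somatic libraries. Ropn1 had 169, 187 and 163 FPKM in germ cells and was listed at 0 in 11 of 18 somatic libraries. The related pair thus differed in what remained outside germ cells, with Ropn1l measurable in all 18 somatic libraries and Ropn1 at no more than 0.32 FPKM. Cabyr, a calcium-binding sheath protein phosphorylated during capacitation, had 174, 226 and 177 FPKM in germ cells and at most 0.67 FPKM in somatic libraries.

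Outer dense fibres run along the axoneme and stiffen the tail. Odf2, which is also a protein of centriole appendages in dividing cells, was the most abundant member, at 1624, 1714 and 1593 FPKM in germ cells, rank 13 among all genes. It was also present in every somatic library, at 10.2 to 17.2 FPKM, or 0.73% to 1.01% of the germ cell mean by group. Its log2 fold change over the somatic mean was 6.72 ± 0.08 (SE, adjusted p = 9.49e-23, limma). Odf1, a small heat shock-like protein of the fibres, had 768, 848 and 734 FPKM in germ cells and at most 0.54 FPKM in somatic libraries. Odf3 and Odf4 averaged 132 ± 10.8 and 272 ± 8.20 FPKM in germ cells (SD, n = 3) and at most 0.13 FPKM in any somatic library. Within this family only Odf2 had a somatic level above 1 FPKM in any library.

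Tektins are filaments inside the doublet microtubules. Tekt1 had 454, 379 and 429 FPKM, Tekt3 208, 176 and 196 FPKM and Tekt4 324, 268 and 313 FPKM in germ cells, and none of them passed 0.23 FPKM in a somatic library. Tekt5 was the least abundant, at 47.3, 69.0 and 49.4 FPKM in germ cells and at most 0.21 FPKM elsewhere. Tekt2 had 263, 248 and 258 FPKM in germ cells and was the tektin with a somatic level, from 1.07 FPKM in TSMC library 3 to 5.60 FPKM in Leydig library 3. Germ cell libraries did not overlap the somatic libraries for any of the 5.

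Axonemal dyneins are the motors of the tail, and their heavy chains are among the longest transcripts measured. Dnah8 and Dnah17 encode the heavy chains of the outer arm in sperm. Dnah8 had 176, 256 and 204 FPKM and Dnah17 44.1, 56.9 and 49.8 FPKM in germ cells. Dnah1 and Dnah2, heavy chains of inner arms, were the lowest members, at 21.7, 27.5 and 23.3 FPKM and at 19.9, 29.2 and 22.3 FPKM. No heavy chain passed 0.36 FPKM in a somatic library. In contrast, Dnah5, Dnah9 and Dnah11, which encode outer arm heavy chains of airway cilia and belong to the wider list described later, averaged 0.207, 0.603 and 0.137 FPKM in germ cells. Among outer arm heavy chains, the germ cell libraries therefore held Dnah8 and Dnah17 RNA at levels above those of the airway genes in every library. Dnali1, a light intermediate chain of inner arms, had 151, 152 and 154 FPKM in germ cells and was at most 0.22 FPKM elsewhere.

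Radial spokes carry signals from the central pair to the dyneins. Rsph1, a spoke head protein on chr17:31255019-31277356, had 1135, 1222 and 1162 FPKM in germ cells. Rsph9, a second spoke head protein on chr17:46129277-46144198, had 144, 119 and 147 FPKM. Both kept a low level in all somatic libraries, 0.93 to 10.2 FPKM for Rsph1 and 1.53 to 9.42 FPKM for Rsph9. Spag16 and Spag17, proteins of the central pair, had 87.6, 87.6 and 90.3 FPKM and 62.9, 85.4 and 67.3 FPKM in germ cells. Spag17 was at most 0.1 FPKM elsewhere. Spag16 was also near 0 in most somatic libraries, with 0.23, 1.02 and 0.42 FPKM in PTM libraries, 0 to 0.25 FPKM in Sertoli and Leydig libraries and at most 0.05 FPKM in smooth muscle.

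Gas8, a subunit of the nexin-dynein regulatory complex that links neighbouring doublets, was the exception among the members. It had 44.8, 48.0 and 46.15 FPKM in germ cells, with 22.9, 23.5 and 22.5 FPKM in Sertoli, 19.9, 18.2 and 19.6 FPKM in PTM, and 15.8, 16.95 and 16.2 FPKM in Leydig libraries. The 9 smooth muscle libraries held 13.5 to 15.05 FPKM. Germ cell libraries were above all others without overlap, but the somatic groups stood at 30.6% to 49.6% of the germ cell mean, where no other member exceeded 4.72%. The log2 fold change was 0.98 ± 0.06 over Sertoli cells (SE, adjusted p = 1.65e-11, limma), just under the size required for a call, and 1.23 to 1.64 over the other 5 groups. It reached 1.01 with a smaller pseudocount, 1.0 without germ cell library 1, past the size for a call, and 2.05 under median log-ratio scaling. The gene lies on chr8:123518835-123536650 (mm10).

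CatSper subunits form the calcium channel of the sperm tail that is needed for hyperactivated swimming. Catsper2 was the most abundant, at 211, 209.9 and 207 FPKM in germ cells, followed by Catsper4 at 84.05, 74.1 and 73.9 FPKM, Catsper1 at 60.5, 76.3 and 59.6 FPKM and Catsper3 at 31.5, 33.1 and 30.1 FPKM. Catsper4 and Catsper1 did not differ beyond their spread, since their germ cell libraries overlapped. Catsper1 was listed at 0 in 15 and Catsper4 in 12 of 18 somatic libraries, while Catsper2 was listed above 0 in all 18, at 0.25 to 0.96 FPKM. Catsper2 shares 18 exon bases with Pdia3 on the opposite strand. In the GENCODE vM21 annotation 9 of the 31 members share exon bases with an opposite-strand gene, among them Odf2 (97 bases, with Gm23865) and Tekt2 (396 bases, with Gm12945), and whether reads were counted by strand is not given in the sources used here.

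Smcp, a protein of the mitochondrial capsules in the midpiece, had 1075, 1334 and 1001 FPKM in germ cells, and Meig1, which carries cargo to the growing tail along the manchette, had 1291, 1164 and 1279 FPKM. Their log2 fold changes over the somatic mean, 9.83 ± 0.16 for Meig1 and 9.77 ± 0.14 for Smcp (SE), headed the members at the added 1 FPKM, but with 0.01 added Tekt1 (13.05) and Odf4 (12.96) stood above Smcp (12.7). In the authors' deposited table, Odf4 (13.24) and Catsper4 (12.85) also had larger values than Meig1 (10.79) and Smcp (10.62). Their highest somatic values were 1.8 and 1.17 FPKM, both in Sertoli library 3. Spata6, needed to form the connecting piece between head and tail, had 289, 324 and 281 FPKM in germ cells and 6.02 to 14.6 FPKM in somatic libraries.

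Outside germ cells the members fell into 2 sets by level. At 1 FPKM or more in at least 3 somatic libraries were 7 genes, namely Gas8, Odf2, Spata6, Rsph1, Rsph9, Tekt2 and Ropn1l, whose group means were 0.0978% to 49.6% of the germ cell mean. The other 24 never exceeded 1.8 FPKM in a somatic library, and their group means were at most 0.69% of the germ cell mean. Of the 432 values of these 24 genes in somatic libraries, 98 were listed at 0. At the median depth, 1 fragment corresponds to 0.048 FPKM for Odf1, 0.063 for Smcp and 0.083 for Meig1, so values near these rest on single fragments. For the long Dnah8 transcript 1 fragment corresponds to 0.0032 FPKM. Dnah8 somatic values came to about 1154 fragments over all somatic libraries, and those of Catsper2 to about 465, so low values can rest on many fragments. Dnah8 shares 443 exon bases with AC165951.2 and 207 with 1700097N02Rik, and Catsper2 shares 18 with Pdia3, all on the opposite strand. Whether these fragments came from the members themselves therefore cannot be told.

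**Figure D2:**
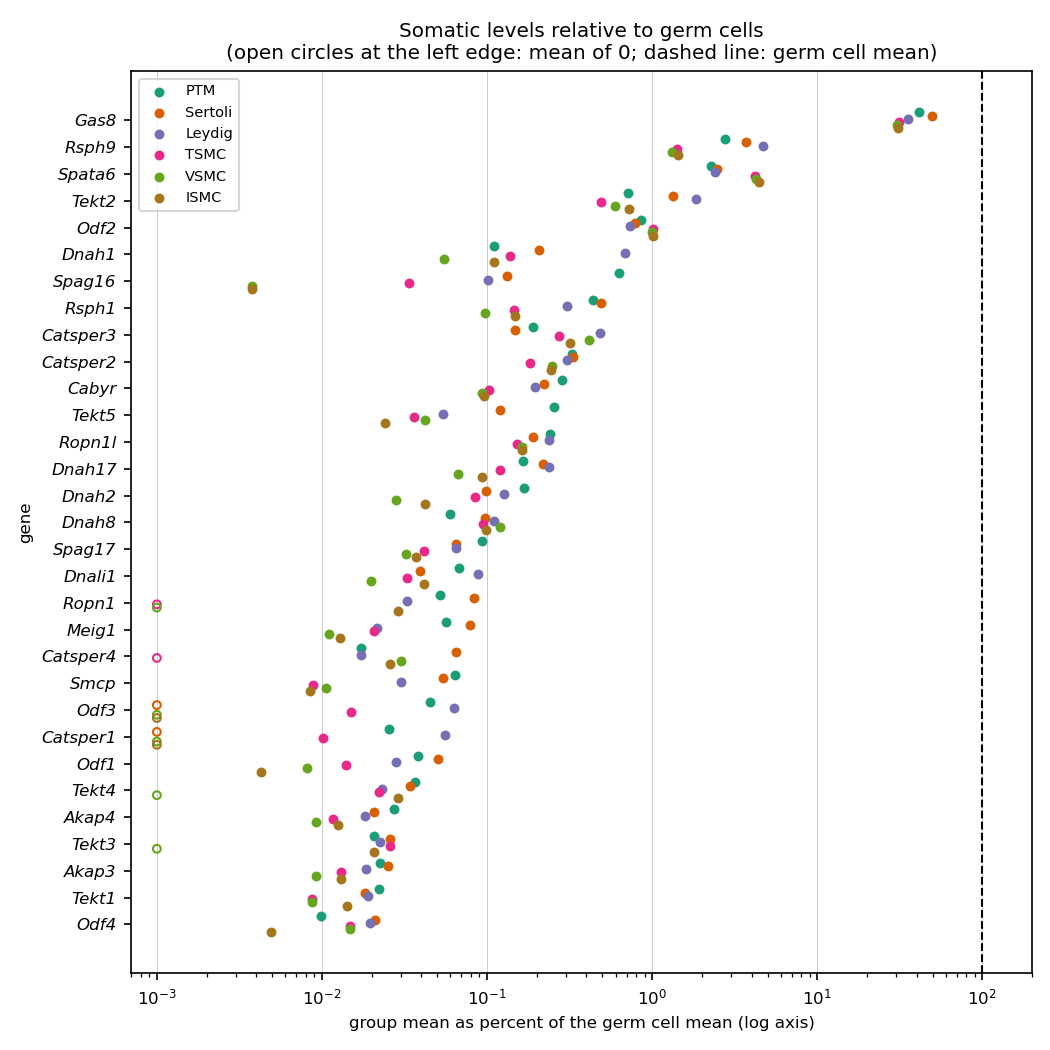
Mean of each somatic group as a percentage of the germ cell mean, for each of the 31 genes (log axis, 1 point per group of 3 libraries, open circles for a mean of 0). Gas8 stands apart at 30.6% to 49.6%, and the 24 genes with low somatic values stay at or under 0.69%.

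Somatic cells of the testis were then compared with smooth muscle of other organs. Rsph1 had 2.75, 7.82 and 4.82 FPKM in PTM, 2.88, 10.2 and 4.28 FPKM in Sertoli and 2.63, 2.36 and 5.79 FPKM in Leydig libraries, against 0.93 to 1.86 FPKM in the 9 smooth muscle libraries. Rsph9 had 3.44 to 4.35 FPKM in PTM, 3.70 to 6.06 FPKM in Sertoli and 4.71 to 9.42 FPKM in Leydig libraries, against 1.53 to 2.21 FPKM in smooth muscle. For both spoke head genes the 9 testicular libraries were above the 9 smooth muscle libraries without overlap. These were the 2 of 31 members called higher in testicular somatic cells, beside 9.87% of all genes tested, with log2 fold changes of 1.09 ± 0.19 for Rsph1 and 1.03 ± 0.11 for Rsph9 (SE, adjusted p = 5.14e-05 and 1.63e-07, limma). No member was called lower, beside 6.82% of all genes. At an unadjusted limma p under 0.05, with no minimum fold change, 12 members were higher and 2 were lower, Odf2 and Spata6. The share of all genes at this threshold is not given here, so these counts are descriptions. The median log2 difference was 0.07 over the members and 0.08 over all genes tested.

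The count depends on the value added before taking logs, and 24 of the 31 members lie near 0 outside germ cells. With 0.1 added 6 members were called higher (Odf1, Rsph1, Rsph9, Spag16, Smcp and Meig1) and with 0.01 added 12, with 0 lower in either case. The share of all genes called with these smaller values is not given here, so the rise cannot be read as particular to the members. The calls of Rsph1 and Rsph9 also rest on few libraries. The log2 fold change of Rsph1 was 0.95 without Sertoli library 2, 0.99 without PTM library 2 and 0.99 without Leydig library 3, and that of Rsph9 was 0.94 without Leydig library 3, 0.99 without Sertoli library 2, 0.99 without TSMC library 2 and 1.0 to 2 decimals, just under the size for a call, without PTM library 1. Quantile normalization gave 0.97 for Rsph1 and 0.90 for Rsph9, and median log-ratio scaling 0.95 and 0.88, so neither was called under another scaling. Spermatid markers differed in the same direction. The 13 markers summed to 5.06 to 19.0 FPKM in testicular somatic libraries and 1.09 to 3.34 FPKM in smooth muscle. The 24 members with low somatic values summed to 2.46 to 6.24 FPKM in testicular somatic libraries and 1.33 to 2.39 FPKM in smooth muscle. Their part in the 2 calls was not tested. Within groups, the library highest for Rsph1 was also highest for spermatid markers in PTM (library 2, 19.0 FPKM against 10.8 and 14.15) and Leydig cells (library 3, 7.28 FPKM against 5.10 and 5.06), but lowest in Sertoli cells (library 2, 6.79 FPKM against 8.35 and 13.9). The library highest for Rsph9 was lowest for these markers in PTM (library 1) and Sertoli cells (library 2), and highest in Leydig cells (library 3).

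Other members with somatic levels differed by less than the size required for a call. Spata6 had 6.02 to 8.02 FPKM in testicular somatic libraries and 11.8 to 14.6 FPKM in smooth muscle, with no overlap and a log2 difference of -0.77 ± 0.05 (SE, adjusted p = 4.80e-10, limma). Odf2 had 10.2 to 15.35 FPKM in testicular somatic libraries and 15.6 to 17.2 FPKM in smooth muscle, again without overlap, at -0.34 ± 0.06 (adjusted p = 3.60e-05, limma). Gas8 was on the other side, at 15.8 to 23.5 FPKM in testicular somatic libraries and 13.5 to 15.05 FPKM in smooth muscle, at 0.41 ± 0.03 (adjusted p = 5.93e-09, limma). Tekt2 was at 0.69 ± 0.10 (adjusted p = 3.56e-06, limma) and Ropn1l at 0.34 ± 0.11 (adjusted p = 0.0105, limma), both larger in testicular libraries. Of the 7 members with somatic levels, 5 thus had a positive difference and 2, Spata6 and Odf2, a negative one. Libraries of the 2 sides did not overlap for 5 of 31 members (16.1%) and for 23.8% of all genes with values.

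**Figure D3:**
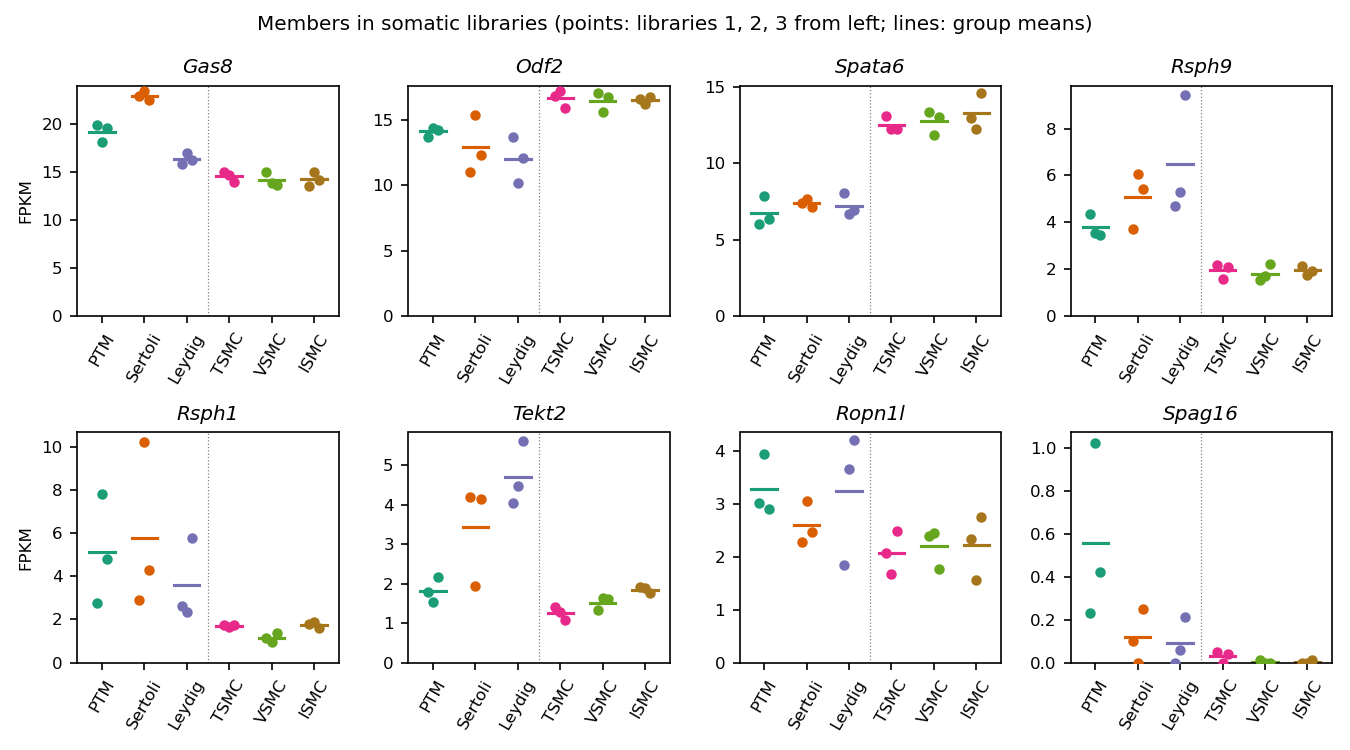
FPKM of 8 members in the 18 somatic libraries (points, libraries 1 to 3 from left in each group; lines, group means), with testicular groups left of the dotted line and smooth muscle right of it. Rsph1 and Rsph9 are higher left of the line without overlap, Spata6 and Odf2 lie higher right of it without overlap at less than the size for a call, and Spag16 reached 1.02 FPKM in PTM library 2.

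Across the 15 pairs of somatic groups, 16 member calls were made in all, and they belonged to Rsph1 with 7, Rsph9 with 6 and Tekt2 with 3. With 0.1 added in place of 1 FPKM the calls numbered 52, and with 0.01 added 79, so the counts beside background shares below hold for the added 1 FPKM. No share of all genes is given for the smaller added values. Tekt2 had 1.79, 1.52 and 2.16 FPKM in PTM, 4.18, 1.93 and 4.15 FPKM in Sertoli, 4.05, 4.48 and 5.60 FPKM in Leydig and 1.07 to 1.91 FPKM in smooth muscle libraries. It was higher in Leydig cells than in TSMC (log2 fold change 1.34 ± 0.17, adjusted p = 1.73e-06, limma) and VSMC (1.18 ± 0.17, adjusted p = 7.77e-06, limma). It was lower in PTM than in Leydig cells (-1.01 ± 0.17, adjusted p = 7.81e-05, limma), a call that was lost without PTM library 2 (-0.93) or Leydig library 3 (-0.9). With limma and 1 FPKM added, Rsph1 alone was called between PTM and smooth muscle, 1 of 31 members against each group. Beside it, 18.5% of all genes were called for TSMC, 19.0% for VSMC and 17.7% for ISMC in either direction. The authors' deposited values for VSMC over PTM held further members with differences of at least 1 in size. Examples in both directions were Spag16 at -5.46, Smcp at -2.63 and Dnah8 at 1.01. The share of all genes with such deposited values is not given here. Rsph1 over TSMC and ISMC was no longer called without PTM library 2, at 0.79 and 0.77. Between Sertoli cells and smooth muscle, Rsph1 and Rsph9 were called against each group, beside 18.5%, 19.5% and 18.2% of all genes for TSMC, VSMC and ISMC. Without Sertoli library 2 the Rsph1 values over TSMC and ISMC were 0.74 and 0.72, and those of Rsph9 over the same groups were 0.91 and 0.90. Between Leydig cells and smooth muscle, 2 members were called against TSMC, 3 against VSMC and 1 against ISMC, beside 21.9%, 22.0% and 21.2% of all genes, and Rsph1 over VSMC was 0.71 without Leydig library 3. Between PTM and Leydig cells 1 member was called, beside 11.1% of all genes. In limma, no member was called between PTM and Sertoli cells (6.06% of all genes), between Sertoli and Leydig cells (12.9%), or for TSMC against VSMC (4.58%), TSMC against ISMC (4.17%) and VSMC against ISMC (0.831%). At an unadjusted p under 0.05 and any fold change these comparisons gave 3 members for PTM against Sertoli, 5 for Sertoli against Leydig and 0 for each smooth muscle pair. No share of all genes at that threshold is given beside them.

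The trachea is lined by multiciliated cells, which share some of the axonemal members, so TSMC libraries were checked for these cells. The 31 members summed to 51.7 to 54.3 FPKM in TSMC and to 49.6 to 54.9 FPKM in VSMC and ISMC libraries, and no member was called between these groups. Most of the TSMC sum came from Odf2, Gas8 and Spata6, at means of 16.7, 14.6 and 12.5 FPKM, so the sum says little about ciliated cells. Foxj1, the regulator of motile ciliogenesis, averaged 96.9 FPKM in germ cells and at most 0.247 FPKM in a somatic group. Sntn, Tmem212 and Cdhr3, markers of mature multiciliated cells, were at or under 0.0467 FPKM in every group. The 15 markers of this cell type summed to 164 to 443 FPKM in somatic libraries, most of it from Tubb4b, a tubulin found in many cell types, with group means of 161 to 414 FPKM. Of the 9 tested markers, 1 was called higher in TSMC than in VSMC and 1 lower in TSMC than in ISMC. The shares of all genes called in either direction were 4.58% and 4.17%.

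Germ cell library 2 stood apart from libraries 1 and 3 in the balance among members. It was the highest germ cell library for 19 of 31 members (61.3%) and the lowest for 8 (25.8%), where over 5389 genes at 10 FPKM or more in germ cells it was highest for 46.7% and lowest for 43.3%. Tekt5 was 0.51 higher on the log2 scale in library 2 than the mean of libraries 1 and 3, Dnah2 0.47, Dnah8 0.43 and Spag17 0.39. Rsph9 was at -0.29, Tekt4 at -0.25 and Tekt1 at -0.22. The tektins were thus divided, with Tekt1 to Tekt4 lowest and Tekt5 highest in library 2. With 1 library on one side, none of these differences has a test.

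The authors' deposited table assigns genes to named co-expression modules, and how these were made is not given in the sources used here. The turquoise module holds 17 members and all 17 were highest in germ cell library 2. The blue module holds 12 members, of which 8 were lowest there and 0 were highest. Gas8 and Catsper1 have no module. Over all genes of this level the modules were divided in the same way, with 729 of 801 turquoise genes highest and 655 of 728 blue genes lowest in library 2, so module membership is no separate evidence about the members. Transcript length moved with the difference as well. The median log2 ratio of library 2 over the others was 0.02 over the 6 members with transcripts under 1000 bases and 0.36 over the 4 members above 8000 bases, beside -0.14 and 0.38 over all genes of these lengths. The 10 Leydig cell markers summed to 160.6 FPKM in germ cell library 2 and to 40.7 and 36.6 FPKM in libraries 1 and 3. Only 2 of them reached 10 FPKM in germ cells, with log2 ratios of 3.29 and -0.24 for library 2. The sum therefore does not show a rise of these markers as a set. The part of length and of Leydig cells in the pattern was not tested. Leaving out germ cell library 2 kept all 31 members higher than the somatic mean.

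**Figure D4:**
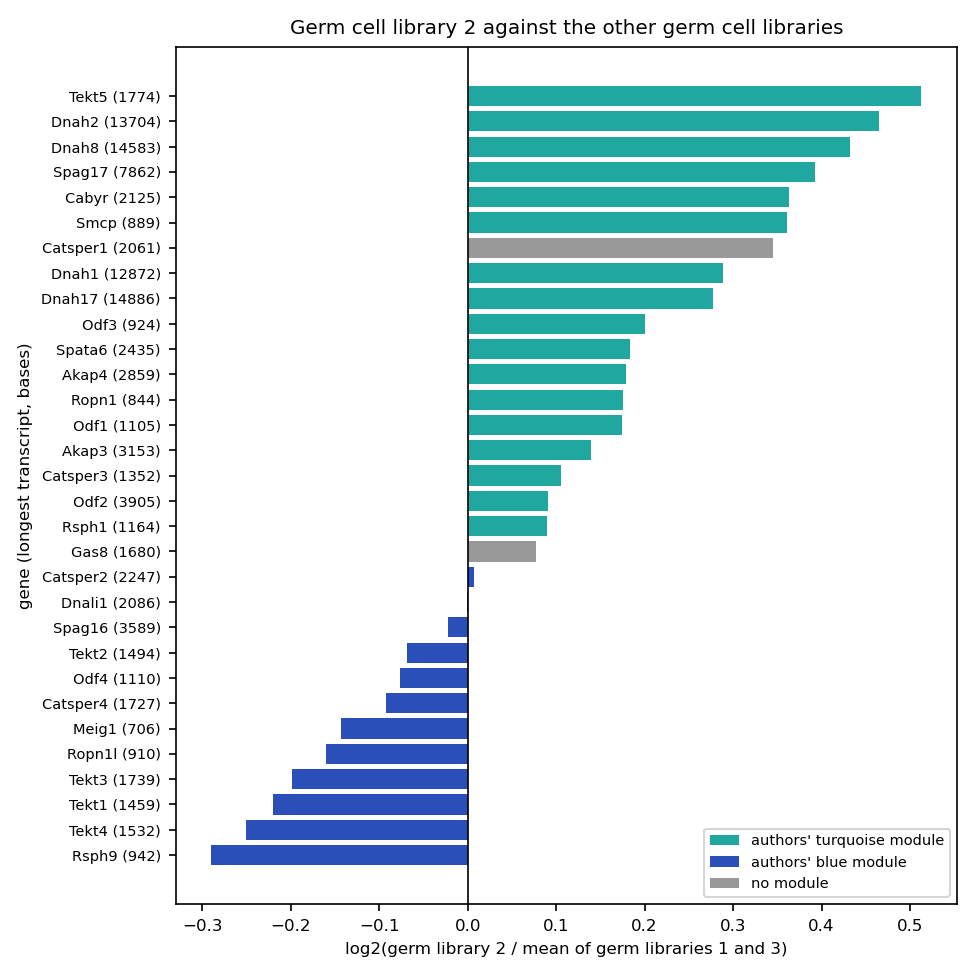
Log2 ratio of germ cell library 2 over the mean of germ cell libraries 1 and 3 for each of the 31 genes, with the length of the longest transcript in brackets and the authors' module as colour. Turquoise genes are all above 0, from Rsph1 to Tekt5 at 0.51, and blue genes reach down to -0.29 for Rsph9.

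Other genes of the flagellum, taken from lists by role, were read beside the members. Of 144 tested genes in 6 lists, 127 were called higher in germ cells in all 6 comparisons, and against the somatic mean 130 were higher and 2 lower, with a median log2 fold change of 4.42. Of the 144, 65 reached the minimum level in somatic libraries, and the others could only be called higher, so the counts of these lists are descriptions, beside 25.0% of all genes higher in all 6. All 38 further genes of the spokes, central pair and regulatory complex were higher in all 6 comparisons, 10 of them at the minimum level in somatic libraries, from Cfap206 (log2 fold change 9.0) to Spef1 (2.80) and Cfap20 (2.67). Rsph6a, the spoke head protein of sperm, averaged 222 FPKM in germ cells, whereas Rsph4a, its counterpart in airway cilia, averaged 0.09 FPKM and was not tested.

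Further dynein arm genes were higher in 11 of 12 cases, led by Ttc25 (6.77) and Ccdc151 (5.34), which dock the outer arm, with Dnal4 at 3.05 and Dnal1 at 0.42, below the size for a call. Of 13 genes that preassemble dynein arms in the cytoplasm, 12 were higher, led by Dnaaf1 (8.92) and Zmynd10 (8.13). Ruvbl2 was also called, at 1.96, and Ruvbl1, which like Ruvbl2 serves many complexes in all cells, was at -0.32. Of 30 further sheath, fibre and midpiece genes 27 were higher, with Ldhc, the lactate dehydrogenase of sperm, at 11.23 and Tcp11 at 10.12. Cltc, the clathrin heavy chain, was at -1.19 against the somatic mean and Akap11 at -0.30.

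Motility signalling genes were higher in 18 of 25 cases, led by Ppp3r2 (8.0), the testis calcineurin subunit, and Tssk2 (7.98), a spermatid kinase, while Gsk3a was at -0.38 and Hvcn1 at -0.71. Intraflagellar transport, which carries cargo along all cilia, differed in size. Of its 26 genes 21 were higher in all 6 comparisons, but the median log2 fold change was 2.61. Ttc21a (5.80) and Ift140 (5.72) were at the upper end, with Ttc30b at 0.73 and Ift20, which also has a role at the Golgi, at -1.07. The minimum level in somatic libraries was reached by 7 of the 31 members and by 24 of these 26 genes. Beside the members, with 30 of 31 higher in all 6 comparisons and a median of 7.07, stood acrosome genes (22 of 22, median 6.38), chromatin packing genes (13 of 14, median 6.90) and meiotic genes (21 of 24, median 3.64). In somatic libraries 3 of the 22, 4 of the 14 and 5 of the 24 reached the minimum level, so most of these counts were set by the filter. All 9 listed regulators of ciliary and spermatid genes were higher in all 6 comparisons, 4 of them at the minimum level in somatic libraries. The others could only be called higher. Germ cell means were 185 FPKM for Rfx2 and 81.3 FPKM for Crem.

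**Figure D5:**
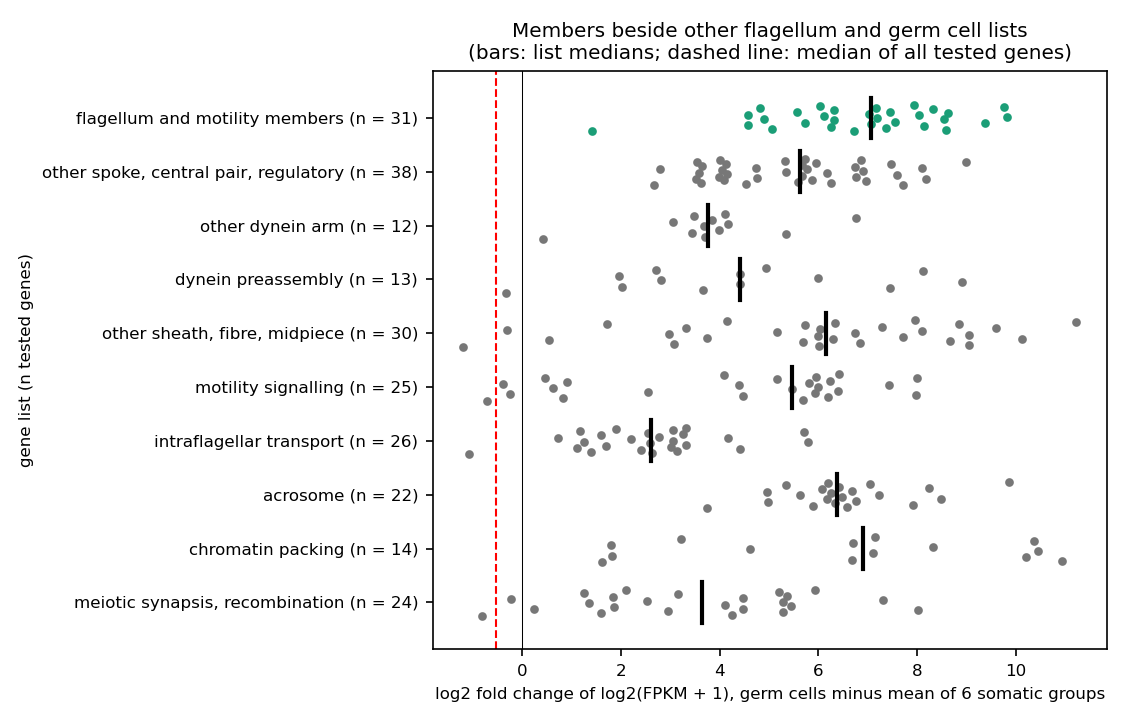
Log2 fold change of log2(FPKM + 1) in germ cells minus the mean of the 6 somatic groups, for the 31 members and for 9 other lists (points are tested genes, bars list medians, the dashed line the median of all tested genes). The members' median of 7.07 lies above the 2.61 of intraflagellar transport genes, and Gas8 is the lowest member at 1.42.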

How the data were processed

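RNA-seq libraries of 7 groups, 3 each, were read from the authors' deposited table, which gives one FPKM value per gene and library, printed to 2 decimals, and was grouped by the sample labels. The submitters' processing notes name RSEM 1.2.12, HISAT2 2.0.4, the mm10 build and Bowtie2 2.2.5 but assign them no step. The same table holds the authors' log2 fold changes between PTM and other groups, with q-values from DEGseq per the file headers, transcript lengths and module names.

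Members and lists were chosen with earlier results of these data known. Values were transformed to log2(FPKM + 1). The 14444 genes that reached 1 FPKM in 3 or more libraries entered one limma fit (limma 3.58.1, R 4.3.3) with group means, a trended prior variance and residual df of 14, two-sided, adjusted by Benjamini-Hochberg within each comparison. The added 1 understates changes of low genes. The procedure was tested on simulated data. All members are named, members called between somatic groups are described, and from each other list the 2 genes with the largest and the 2 with the smallest change, of which 1 is not reported here; Dnah5, Dnah9, Dnah11, Rsph6a and Rsph4a, the marker genes and the sequences shown were chosen after their values were seen.

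Depth was inferred from low FPKM values of genes whose transcript length was 800 to 1500 bases, shortened by 150, and came to 20200000 to 22350000 fragments per library. In each library 296 to 521 values were used, and 84.6% to 90.8% were whole fragments within 0.2. No interval was derived from it.

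Same-numbered libraries correlated above 0.1 for all 3 numbers, in their deviations from group means, in 1 pair of groups of 21. This pair was PTM and Sertoli (0.227, 0.25 and 0.103). Sertoli and Leydig libraries had negative correlations (-0.266, -0.375 and -0.072). The labels share replicate numbers and state no pairing. Alternatives were other pseudocounts, filters, scalings, priors, sample sets, a replicate block and leaving out libraries. Columns of a further group were not analysed here.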

Additional observations from a re-analysis of the deposited data

How the results depend on the processing

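The count of members higher in all 6 germ cell comparisons, 30 as reported, was 30 or 31 in every alternative run, and all 31 members kept their call against the somatic mean in 30 of 30 settings. Of the values of single genes across alternatives, 1216 kept direction and call, 50 lost the call, 4 gained it and 0 reversed. The kept values include those of all 31 members against the somatic mean, where 24 members were bound to differ by the filter. All 50 losses were among calls between somatic groups, so the pooled counts say little about how stable those calls were. The members called higher in testicular somatic cells than in smooth muscle, 2 as reported, numbered 6 at a pseudocount of 0.1, 12 at 0.01, 0 under quantile normalization and 0 under median log-ratio scaling; leaving out 1 library at a time gave 0 to 2. With the libraries numbered 2 of PTM, Sertoli and germ cells left out together, chosen after seeing the data, it was 0. The 16 calls over pairs of somatic groups became 52 at a pseudocount of 0.1 and 79 at 0.01, and members called between PTM and Sertoli became 1 at either, against 0 as reported. The cause of these changes was not tested, and no share of all genes at the smaller pseudocounts is given beside them.

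Replicate number as a block changed no count of member calls, with 30 in all 6 germ cell comparisons, 2 in testicular cells over smooth muscle, 16 over the somatic pairs and 0 between PTM and Sertoli, where the pairing check applied; a fit of those libraries alone with the block, chosen after seeing the data, also gave 0. Quantile and median log-ratio scaling moved the median of all genes by 0.19 and 0.68 in germ cells minus the somatic mean, and by -0.08 and -0.07 between testicular cells and smooth muscle.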
